A study of Mus musculus with 16 samples.

Results

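The 10 membrane carriers that move drugs, bile pigments and other organic anions through liver cells were examined as a group of transcripts. They were chosen by name as the members of this transporter group, and 10 of the 41079 genes in the deposited count table belong to it (Slco1a1, Slco1a4, Slco1b2, Slco2b1, Abcc2, Abcb1a, Abcg2, Abcc3, Abcc4 and Slc46a3). The study sequenced liver mRNA of aged mice to ask what the loss of the glucagon receptor in the liver does in each sex. All mice were 20 to 22 months old and carried floxed alleles of Gcgr, the glucagon receptor gene, and the labels name no strain. The groups were 4 male CRE- mice, 4 male LKO mice, 4 female CRE- mice and 4 female LKO mice. The LKO mice also carried Cre under the Albumin promoter, which is active mainly in hepatocytes and from development on, so the receptor was not removed in old age and other liver cells could keep it. The CRE- mice carried the same floxed alleles without Cre, so the presence of Cre itself cannot be told apart from the loss of the receptor. Between 33268424 and 56488920 reads per liver were counted on genes. Levels are given as CPM, the gene's count relative to the TMM-scaled total of its library.

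Hepatocytes take up organic anions from blood across the sinusoidal membrane through carriers of the Slco family, known as organic anion transporting polypeptides. They pass them on to bile through ATP-driven pumps in the canalicular membrane, or back to blood through related pumps in the sinusoidal membrane. In the mouse liver several of these carriers differ between the sexes, and Slco1a1 is a known male-biased gene.

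Gcgr was at 190, 193, 127 and 190 CPM in male CRE- replicates 1 to 4 and at 117, 136, 130 and 160 CPM in male LKO replicates 1 to 4. It was at 162, 208, 201 and 180 CPM in the female CRE- mice and at 48.8, 132, 119 and 93.6 CPM in the female LKO mice. Every female LKO liver was below every female control, while the male groups overlapped because male CRE- replicate 3 was lower than the other male controls. The log2 fold change was -0.93 in females (SE 0.25, edgeR quasi-likelihood, Benjamini-Hochberg adjusted p = 0.0443) and -0.37 in males (SE 0.24, edgeR adjusted p = 0.671). In the fits that left out 1 library the female edgeR adjusted p was between 0.0225 and 0.136 and passed in 3 of 16, and it did not pass with no filter on low counts or with each sex fitted alone (edgeR adjusted p = 0.0545 and 0.132). The counts cover the whole gene, including exons outside the floxed segment, so they check the genotype only in part. Xist was at 137 CPM or more in each female liver and at 0.243 CPM or less in each male liver, and Ddx3y, a gene of the Y chromosome, had reads in the male livers alone.

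Some libraries stood apart from their groups. Male LKO replicate 1 had a low summed level of male-biased genes and a high summed level of female-biased genes for a male. Single genes did not all follow. The female-biased Cyp3a41a was at 0.772 CPM in this liver and at 0.507, 0.713, 0.598 and 0.27 CPM in male controls. In female controls Cyp3a41a was at 682 CPM or more. The summed level of 10 male-biased liver genes was 925 CPM in this liver and 12700, 21000 and 15100 CPM in male LKO replicates 2 to 4, against 5150, 3320, 4640 and 5950 CPM in the male controls. Mup20 was the most abundant of these, at 233, 10100, 18500 and 12300 CPM in male LKO replicates 1 to 4. In the male controls Mup20 was at 3690, 1840, 3430 and 4160 CPM. The summed level of 10 female-biased liver genes was 1050 CPM in male LKO replicate 1 and 212, 207 and 247 CPM in the other male LKO livers. The male controls had 71.8, 450, 119 and 75 CPM, so male CRE- replicate 2 was above these other livers. The Ddx3y level of 58 CPM and Xist level of 0.0514 CPM in male LKO replicate 1 were those of a male. Over all genes tested, female LKO replicate 1, male CRE- replicate 3 and female LKO replicate 4 were the farthest from the mean of the other 3 libraries of their group, with root mean square differences of 1.08, 0.991 and 0.936 in log2 CPM, where the other libraries were between 0.565 and 0.827.

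**Figure D1:**
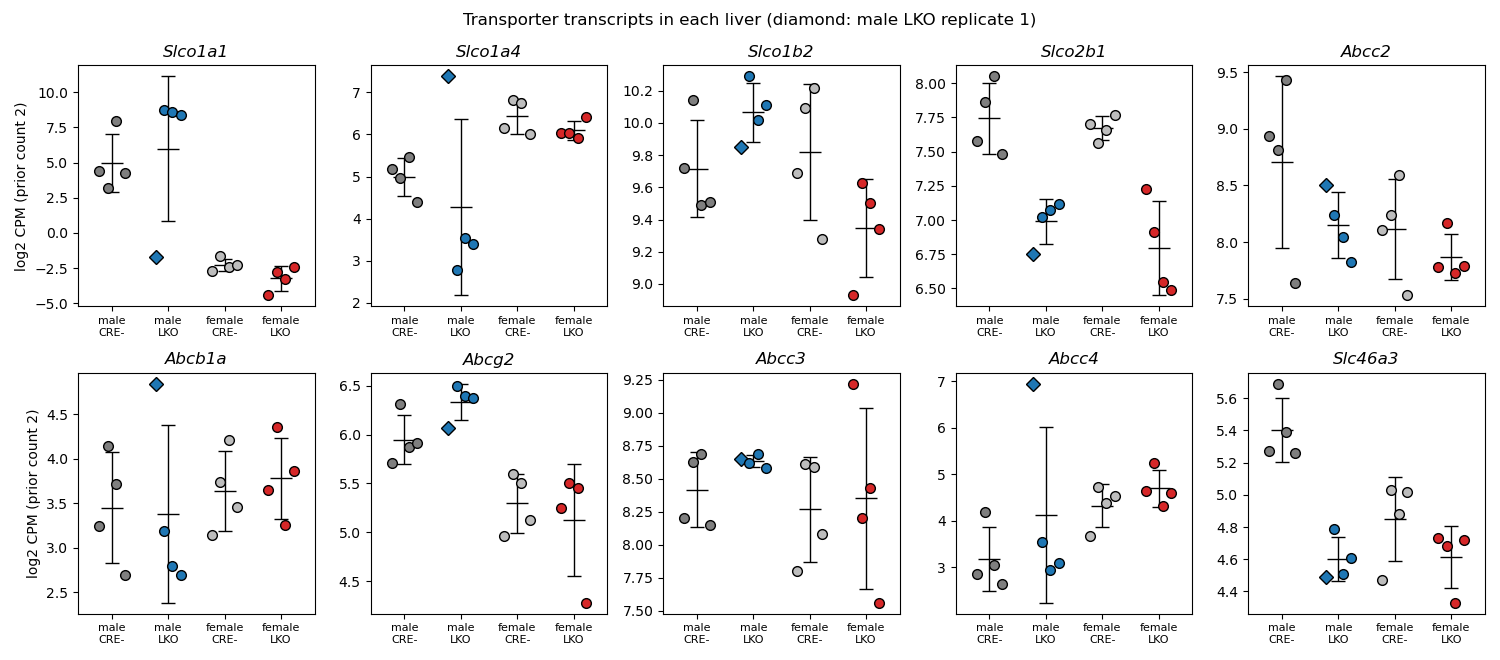
Level of each of the 10 transporters in each liver, as log2 CPM with a prior count of 2, by group. Points are livers, horizontal marks are group means and bars are SD (n = 4), and each panel has its own scale. Male LKO replicate 1, the diamond, is the highest male LKO liver for Slco1a4, Abcb1a, Abcc4 and Abcc2 and the lowest for Slco1a1, Slco1b2, Slco2b1, Abcg2 and Slc46a3.

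All 10 transporters had enough reads to be tested. Per kilobase of exon, Slco1b2 was the most abundant in each group, at 254 ± 57.2 CPM per kilobase (SD, n = 4) in male controls and 277 ± 76.5 CPM per kilobase (SD, n = 4) in female controls. In male controls Abcc2, Abcc3 and Slco2b1 followed, at 81.1 ± 35.8, 68.3 ± 13.3 and 40.5 ± 7.37 CPM per kilobase (SD, n = 4 each). The ranges of Abcc2 and Abcc3 overlapped, as did those of Slco2b1 and Slco1a1, the gene after it. These orders are not larger than the spread between livers. Abcb1a and Abcc4 were the least abundant in male controls, at 2.25 ± 0.924 and 1.08 ± 0.604 CPM per kilobase (SD, n = 4 each), and their ranges overlapped as well. In female controls Slco1a1 was last, at 0.0433 ± 0.0177 CPM per kilobase (SD, n = 4).

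In each sex 1 of the 10 transporters fell in LKO livers by edgeR's quasi-likelihood test, and none rose. In males this was Slc46a3, and 0.454% of all genes tested (76 of 16742) passed the same threshold, 0.233% as lower and 0.221% as higher genes. In females it was Slco2b1, where 4.24% (710 of 16742) passed, 2.15% as lower and 2.09% as higher genes. The male count of genes fell to 43 when male LKO replicate 1 was left out and to 26 when male CRE- replicate 3 was, and the female count was 237 without female LKO replicate 1 and 87 without female CRE- replicate 2. The values of LKO and control livers did not overlap for 2 transporters in males, Slco2b1 and Slc46a3, and for 1 in females, Slco2b1, as they did not for 6.49% and 11.6% of all genes. The median log2 fold change of the 10 was 0.27 in males and -0.27 in females, beside -0.01 and 0.04 over all genes tested. Without male LKO replicate 1 the male median was -0.38, so this liver decided its sign, and with any other library left out it stayed above 0. At an unadjusted p under 0.05 there were 4 transporters in males and 2 in females, beside 9.53% and 21.4% of all genes.

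Slco2b1, a sinusoidal uptake carrier of steroid conjugates, had no overlap between LKO and control livers in either sex, which was so for 1.17% of all genes tested (196 of 16742). On GRCm39 its exons span 99307011 to 99360547 of chromosome 7. In males it was at 191, 232, 264 and 178 CPM in CRE- replicates 1 to 4 and at 108, 130, 134 and 139 CPM in LKO replicates 1 to 4. In females it was at 208, 189, 202 and 218 CPM in CRE- replicates 1 to 4 and at 150, 120, 93.4 and 89.8 CPM in LKO replicates 1 to 4. Every LKO liver was below every control of its sex, and the control groups of the sexes overlapped. In females it fell by 0.85 on the log2 scale (SE 0.19, edgeR quasi-likelihood, Benjamini-Hochberg adjusted p = 0.0241). In males the log2 fold change was -0.76 (SE 0.19) and did not pass, with an edgeR adjusted p = 0.101. The sex difference of the LKO effect was -0.09 in log2, with a 95% interval from -0.64 to 0.46 (edgeR adjusted p = 0.895). The female call was lost without female CRE- replicates 2, 3 or 4 (edgeR adjusted p = 0.0695, 0.0669 and 0.0636), with log2 fold changes of -0.89, -0.86 and -0.80. It was also lost with each sex fitted alone, at -0.84 (edgeR adjusted p = 0.075). The male difference passed with DESeq2 at -0.78 (DESeq2 adjusted p = 0.00351) and limma-voom at -0.63 (limma-voom adjusted p = 0.0489). It passed in edgeR without female LKO replicate 1, at -0.77 (edgeR adjusted p = 0.0389), and was -0.70 without male LKO replicate 1 (edgeR adjusted p = 0.207).

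The female LKO livers also differed from controls in markers of several cell types. Of all genes tested 2.09% were called higher in female LKO livers and 2.15% lower. In females 1 of 6 macrophage markers rose, Adgre1, with a log2 fold change of 2.15 (SE 0.57, edgeR quasi-likelihood, Benjamini-Hochberg adjusted p = 0.0451). All 6 had an unadjusted p under 0.05, as 21.4% of all genes did, with a median log2 fold change of 1.45, or 1.06 without female LKO replicate 1. Without female LKO replicate 1 the Adgre1 value was 1.21, and the call held in 6 of the 16 fits that left out 1 library. The summed macrophage level was 480, 366, 387 and 604 CPM in female controls and 2630, 563, 1350 and 821 CPM in female LKO replicates 1 to 4, with Clec4f as the most abundant gene. Of 4 neutrophil markers tested, Mmp8 and Retnlg rose, with log2 fold changes of 3.50 and 2.86, or 2.66 and 2.04 without female LKO replicate 4. Each of these 2 calls held in 10 of the 16 fits that left out 1 library, with edgeR adjusted p up to 0.0847 and 0.115. The summed neutrophil level was 25.6, 13.9, 11.7 and 14.2 CPM in controls and 77.1, 29.9, 48.2 and 487 CPM in LKO livers, with S100a9 as the most abundant. All 4 had an unadjusted p under 0.05. Ly6g, the remaining neutrophil marker, had too few reads to be tested. Of 6 endothelial markers Cdh5 rose, with a log2 fold change of 0.79, and the call held in 12 of the 16 fits (edgeR adjusted p up to 0.0745), and 3 of the 6 had an unadjusted p under 0.05. The summed endothelial level was 146, 189, 189 and 179 CPM in controls and 343, 191, 197 and 277 CPM in LKO livers, with Stab2 as the most abundant. None of the 6 hepatocyte markers passed in females, 1 having an unadjusted p under 0.05. Their summed level, led by Alb, was 111000, 109000, 114000 and 129000 CPM in controls and 52000, 89600, 86500 and 67400 CPM in LKO livers. Of 7 periportal hepatocyte genes, with a median of -1.05, Cyp2f2 fell and 5 had an unadjusted p under 0.05. Their summed level was 5090, 5840, 7090 and 6900 CPM in female controls and 2080, 7450, 2610 and 3010 CPM in female LKO replicates 1 to 4, so replicate 2 alone was not below the controls. The part of these lists in the Slco2b1 result was not tested. In whole liver, fewer hepatocytes and less RNA per hepatocyte cannot be told apart.

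Slco1b2, the main uptake carrier of bile pigment and many drugs in mouse hepatocytes, did not pass in either sex. It was at 844, 1130, 719 and 727 CPM in male controls and at 921, 1260, 1040 and 1100 CPM in male LKO livers. Female livers had 828, 1090, 1190 and 623 CPM in controls and 487, 792, 724 and 649 CPM in LKO livers. The groups overlapped in both sexes. The log2 fold change was 0.34 in males (SE 0.23, edgeR quasi-likelihood, Benjamini-Hochberg adjusted p = 0.683) and -0.49 in females (SE 0.23, edgeR adjusted p = 0.228). The sex difference of the LKO effect was -0.83 in log2, with a 95% interval from -1.52 to -0.14 before adjustment (edgeR adjusted p = 0.252).

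Slco1a1, the male-biased uptake carrier, set the sexes apart and varied widely among males. It was at 21, 9.02, 247 and 19.4 CPM in male CRE- replicates 1 to 4 and at 0.257, 422, 383 and 330 CPM in male LKO replicates 1 to 4. In females no liver exceeded 0.273 CPM, from 0.111, 0.273, 0.144 and 0.16 CPM in controls to 0, 0.0997, 0.0549 and 0.145 CPM in LKO livers. Male LKO replicate 1, with 10 reads, was at the level of the females, while male LKO replicates 2 to 4 were above all 4 male controls. Among the controls, male CRE- replicate 3 was far above the other 3. The male log2 fold change was 1.94 (SE 1.14, edgeR quasi-likelihood, Benjamini-Hochberg adjusted p = 0.626), 2.34 without male LKO replicate 1 (SE 0.80, edgeR adjusted p = 0.394) and 4.08 without male CRE- replicate 3 (SE 1.18, edgeR adjusted p = 0.283). In female livers the 0 to 14 reads per library are too few to show a difference between genotypes at this depth. In female LKO replicate 1 the count of 0 allows a level of up to 0.0755 CPM at 3 counts, for counting error only. This takes each read as independent. Both reads of a sequenced pair may have been counted, so the limit could be higher.

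Slco1a4, a nearby uptake carrier of bile acids and digoxin, had the opposite pattern in male LKO replicate 1. It was at 36.1, 31.1, 43.8 and 21.1 CPM in male controls and at 167, 6.89, 11.6 and 10.5 CPM in male LKO replicates 1 to 4. Female livers had 70.9, 113, 108 and 63.9 CPM in controls and 65.2, 65.2, 60.3 and 85.6 CPM in LKO livers. Male LKO replicate 1 was above all other livers, and male LKO replicates 2 to 4 were below all 4 male controls. The male log2 fold change was 0.57 with all libraries (SE 0.72, edgeR quasi-likelihood, Benjamini-Hochberg adjusted p = 0.832). Without male LKO replicate 1 it was -1.79 (SE 0.28, edgeR adjusted p = 0.0102), so this liver decided both the direction and the call. Over all 16 fits that left out 1 library the edgeR adjusted p was between 0.0102 and 0.999. In females the log2 fold change was -0.36 (SE 0.72, edgeR adjusted p = 0.824). This female SE rests on a spread shared by all 16 libraries, male LKO replicate 1 among them. It does not measure the spread of female livers alone. Slco1b2, Slco1a4 and Slco1a1 lie in this order on chromosome 6 of GRCm39, from 141575178 to 141632372, from 141751164 to 141802011 and from 141853007 to 141892688.

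No canalicular pump passed in LKO livers of either sex by edgeR, and at an unadjusted p under 0.05 there was 1 in males, Abcc2, and 0 in females, beside 9.53% and 21.4% of all genes. Abcc2, which exports bilirubin and drug conjugates into bile, was at 490, 449, 692 and 200 CPM in male controls and at 362, 303, 262 and 226 CPM in male LKO livers. Male CRE- replicate 4 lay below all male LKO livers, so the groups overlapped. The log2 fold change of Abcc2 was -0.67 in males (SE 0.30, edgeR quasi-likelihood, Benjamini-Hochberg adjusted p = 0.498) and -0.29 in females (SE 0.30, edgeR adjusted p = 0.636). Abcb1a, a P-glycoprotein gene, was between 6.40 and 28.5 CPM over all livers, and its highest value was that of male LKO replicate 1. Its male log2 fold change was 0.13 (SE 0.44) and was -0.65 without that liver (SE 0.34, edgeR adjusted p = 0.658). Abcg2, a pump of sulfate conjugates and urate, had a male log2 fold change of 0.38 ± 0.23 (SE) and a female one of -0.12 ± 0.23 (SE). Of 100-base windows in Abcb1a transcripts, 8.21% are also found in another gene of its family, mostly the near copy Abcb1b. How many Abcb1a reads could not be placed for this reason was not tested. For Slco1a1 and Slco1a4 the share was 0.603% and 0.437%, and for the other 7 transporters it was 0. Only 69 other genes of the Slco, Abc and Slc46 families were searched for these windows.

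The sinusoidal efflux pumps Abcc3 and Abcc4, which return conjugates and bile acids to blood, did not pass either, with Abcc4 in males at an unadjusted p under 0.05, as 9.53% of all genes were. Abcc4 was at 7.18, 18.1, 8.16 and 6.16 CPM in male controls and at 124, 11.6, 7.65 and 8.51 CPM in male LKO replicates 1 to 4. Apart from replicate 1, the male LKO livers lay within the range of the male controls. The male log2 fold change of Abcc4 was 1.93 with all libraries (SE 0.72, edgeR quasi-likelihood, Benjamini-Hochberg adjusted p = 0.362) and -0.11 without male LKO replicate 1 (SE 0.35, edgeR adjusted p = 0.94). In females it was 0.36 (SE 0.69, edgeR adjusted p = 0.818), from 12.7, 26.3, 20.9 and 23.1 CPM in controls to 25, 38, 19.7 and 24.1 CPM in LKO livers. This SE also rests on the spread shared by all libraries, male LKO replicate 1 among them. Abcc3 had a male log2 fold change of 0.20 ± 0.28 (SE) and a female one of 0.17 ± 0.28 (SE), and the latter was -0.17 without female LKO replicate 1, which had the highest level at 596 CPM.

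Slc46a3, a carrier of the lysosomal membrane known to release the payloads of antibody conjugates, fell in male LKO livers. On GRCm39 its exons span 147812707 to 147831670 of chromosome 5. It was at 38.6, 51.6, 41.8 and 38.2 CPM in male controls and at 22.5, 27.6, 22.8 and 24.3 CPM in male LKO livers. Female livers had 22.1, 32.6, 29.4 and 32.4 CPM in controls and 26.5, 25.6, 20 and 26.3 CPM in LKO livers. Every male LKO liver was below every male control, while female values were mixed between the genotypes. The male log2 fold change was -0.81 (SE 0.16, edgeR quasi-likelihood, Benjamini-Hochberg adjusted p = 0.0384) and the female one was -0.25 (SE 0.16, edgeR adjusted p = 0.411). The sex difference of the LKO effect was 0.56 in log2, with a 95% interval from 0.08 to 1.04 before adjustment, and did not pass (edgeR adjusted p = 0.258). With 1 library left out the male log2 fold change was between -0.88 and -0.70, and its edgeR adjusted p was between 0.0224 and 0.116. The call was lost without any 1 of the 4 male controls, male LKO replicates 1, 3 or 4, or female CRE- replicates 2 or 3. Erythroid markers were also lower in male LKO livers, with a summed level of 196, 393, 306 and 492 CPM against 768, 627, 559 and 1040 CPM in male controls. None of these 6 genes passed, 5 had an unadjusted p under 0.05, the groups did not overlap for 4, and Hbb-bs was the most abundant. The 4 neutrophil markers tested had a median male log2 fold change of -2.23, or -1.27 without male CRE- replicate 4, none passed, 4 had an unadjusted p under 0.05 and the groups did not overlap for 1. Their summed level was 54.5, 13.4, 8.09 and 117 CPM in male controls and 17.2, 10.1, 7.7 and 7.13 CPM in male LKO livers. The 7 periportal hepatocyte genes had a median of -0.96, none passed, 4 had an unadjusted p under 0.05 and the groups did not overlap for 4. Over all genes tested the male shares were 9.53% and 6.49%. The summed periportal level was 6400, 6860, 4770 and 6220 CPM in male controls and 2740, 2280, 4760 and 2740 CPM in male LKO livers. The part of these lists in the Slc46a3 result was not tested.

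**Figure D2:**
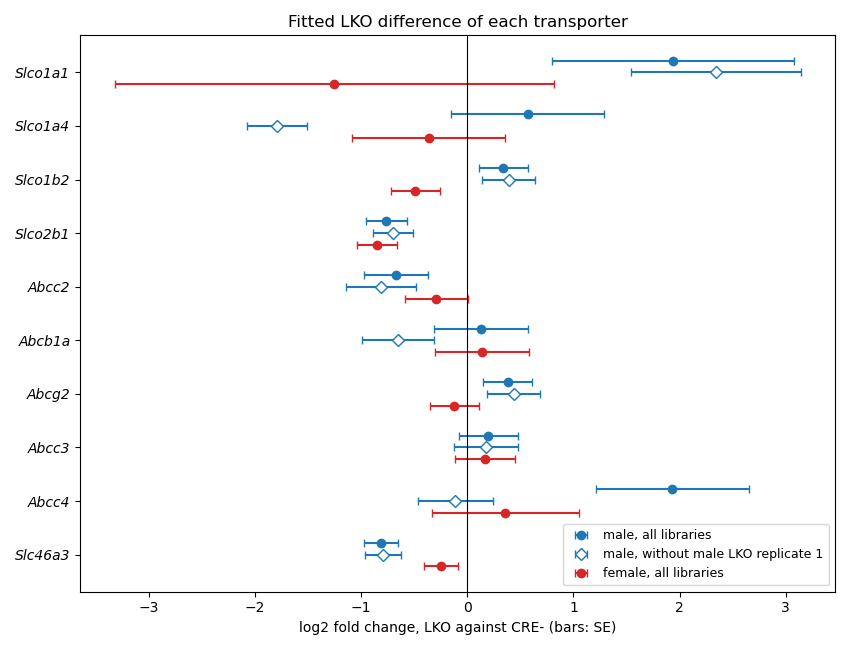
Fitted log2 fold change of LKO against CRE- livers for each transporter, with bars of 1 SE, in males, in males without male LKO replicate 1, and in females. Without that liver the male value of Slco1a4 moves from 0.57 to -1.79 and that of Abcc4 from 1.93 to -0.11, while Slco2b1 and Slc46a3 stay below 0.

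No transporter passed the test of the sex difference of the LKO effect, nor did any of all 16742 genes (0%). At an unadjusted p under 0.05 there were 2 transporters, Slco1b2 and Slc46a3, and 2672 genes by edgeR. DESeq2's Wald test called 371 genes and no transporter in this comparison, and limma-voom called 29 genes and no transporter. The LKO comparisons share no livers between the sexes. Without male LKO replicate 1 the sex difference of Slco1a4 moved from -0.93 to 1.44 in log2 (edgeR quasi-likelihood, Benjamini-Hochberg adjusted p = 0.105).

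Between the control groups 1 of the 10 transporters differed by edgeR's test, where 0.92% of all genes did. Slco1a1 was lower in female than in male controls, with a log2 fold change of -8.70 (SE 1.64, edgeR quasi-likelihood, Benjamini-Hochberg adjusted p = 0.0171). It was -6.56 without male CRE- replicate 3 (edgeR adjusted p = 0.0406). The call was lost without any 1 of the 4 female controls, where the edgeR adjusted p was between 0.0606 and 0.0799. The log2 fold change stayed about as large, at -8.54, -9.04, -8.62 and -8.71 without female CRE- replicates 1 to 4. With limma-voom the log2 fold change of Slco1a1 was -6.77 and did not pass (limma-voom adjusted p = 0.395). The values of the sexes did not overlap for 4 transporters, Slco1a1, Slco1a4, Abcg2 and Slc46a3, as for 7.54% of all genes. Slco1a4 was higher in female controls by 1.43 in log2 (SE 0.73, edgeR adjusted p = 0.429), and passed at 1.41 without male LKO replicate 1, a liver outside this comparison that adds to the shared estimate of the spread (edgeR adjusted p = 0.00832). DESeq2 also called Slc46a3, lower in female controls at -0.56 (DESeq2 adjusted p = 0.026).

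Of 15 tested carriers of the Slc22 and Slc47 families, which handle organic cations and anions, 3 fell in female LKO livers, where 2.15% of all genes did, and none in males, where 0.233% did. At an unadjusted p under 0.05 there were 6 in females and 2 in males, beside 21.4% and 9.53% of all genes. None passed in the sex difference. Their median log2 fold change was -0.83 in females and -0.19 in males. Slc47a1, which extrudes organic cations, was at 152, 189, 167 and 196 CPM in female controls and at 68.8, 113, 93 and 64 CPM in female LKO livers. All female LKO livers were below all female controls, with a log2 fold change of -1.06 (SE 0.22, edgeR quasi-likelihood, Benjamini-Hochberg adjusted p = 0.0194). In males it was at 121, 185, 176 and 126 CPM in controls and at 67.8, 104, 79.7 and 99.8 CPM in LKO livers, again without overlap, and did not pass at -0.79 (SE 0.22, edgeR adjusted p = 0.15). Slc22a30 and Slc22a15 fell in females, with log2 fold changes of -1.16 and -0.83. Of the 16 fits that left out 1 library, the call held in 12 for Slc47a1, 7 for Slc22a30 and 1 for Slc22a15.

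Of 7 bile acid and lipid transporters tested, Slc10a1 fell in females, where 2.15% of all genes did, and none passed in males, where 0.454% did. At an unadjusted p under 0.05 there were 2 in females and 0 in males, beside 21.4% and 9.53% of all genes. Slc10a1, the sodium-driven uptake carrier of bile acids, was at 487, 674, 669 and 623 CPM in female controls and at 177, 399, 435 and 218 CPM in female LKO livers. The groups did not overlap, and the log2 fold change was -0.99 (SE 0.27, edgeR quasi-likelihood, Benjamini-Hochberg adjusted p = 0.0486). The call held in 3 of the 16 fits that left out 1 library. The most abundant of this list, Abcb11, the bile salt export pump, was at -0.67 in females and did not pass. Among 6 other ABC pumps Abcc12 rose in females, as 2.09% of all genes did, and 4 of the 6 had an unadjusted p under 0.05. Abcc12 went from 0.144 CPM or less in female controls to 3.12, 2.82, 1.63 and 0.174 CPM in female LKO livers, a log2 fold change of 4.31 (SE 0.85, edgeR adjusted p = 0.0168), while Abcc6, the most abundant, was at -0.65 and did not pass. The Abcc12 call held in 15 of the 16 fits that left out 1 library and was lost without female CRE- replicate 2 (edgeR adjusted p = 0.0627). Over these fits its female log2 fold change was between 3.95 and 4.69. Abcc12 had 5, 6, 6 and 0 reads in female controls and 124, 113, 89 and 6 reads in female LKO replicates 1 to 4. The controls were near 0 reads, as was female LKO replicate 4, so the size of the fold change is uncertain. In males Abcc12 was at 0.406, 0.0891, 0.52 and 0.315 CPM in controls and at 2.44, 0.708, 2.16 and 1.59 CPM in LKO livers, without overlap, and did not pass at 2.37 (SE 0.75, edgeR adjusted p = 0.254). None of the 4 tested among 10 other Slco genes passed in either sex, and Slco2a1 was the most abundant.

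Among nuclear receptors and other sensors of foreign compounds and bile acids, Hnf4a was the most abundant, with log2 fold changes of -0.17 in females and 0.06 in males, and did not pass. No target gene of CAR and PXR, of NRF2 or of the Ah receptor passed in either sex. Of these, 3 of 10, 0 of 8 and 0 of 5 had an unadjusted p under 0.05 in females and 3 of 10, 3 of 8 and 1 of 5 in males, beside 21.4% and 9.53% of all genes tested. Cyp3a11, Gclc and Cyp1a2 were the most abundant of the lists.

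Sex-biased liver genes were examined beside Slco1a1, and 4 of the 20 fell in female LKO livers, where 2.15% of all genes did. Of 10 female-biased genes Cyp3a41a, Cyp3a41b and Cyp3a44 fell in female LKO livers, with log2 fold changes of -2.73, -4.10 and -2.84, and of 10 male-biased genes Nudt7 fell, with -1.69. The 3 Cyp3a genes are of 1 family and were not searched for shared sequence, so they may not be separate results. In females the median was -1.83 for the female-biased list and 0.60 for the male-biased list. The latter was between 0.26 and 0.96 with 1 library left out, and its genes lay between -1.69 and 2.97. In each list 3 genes had an unadjusted p under 0.05, as 21.4% of all genes did. The summed level of the female-biased genes was 2830, 3850, 3600 and 3690 CPM in female controls and 943, 2900, 1410 and 739 CPM in female LKO livers, led by Cyp2a4. With 1 library left out the call held in 16 of 16 fits for Cyp3a41b and Cyp3a44, in 12 for Cyp3a41a and in 3 for Nudt7. No gene of either list passed in male LKO livers, with 2 of each list at an unadjusted p under 0.05, beside 9.53% of all genes. Of the 7 periportal genes Cyp2f2 fell in females by 2.42 on the log2 scale, and Ass1 was the most abundant, while none of the 7 pericentral genes, led by Cyp2e1, passed in either sex. The other marker lists had no gene past the threshold in LKO livers of either sex.

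The genes nearest to each transporter in z-scored log2 CPM over the 16 libraries were found by root mean square difference. For Slco2b1 they were Vgll4, Arhgap26 and Acot11, at 0.38, 0.39 and 0.39. For Slc46a3 they were Mcur1, Gm14403 and Parva, at 0.50, 0.54 and 0.56. For Slco1a1 they were Hsd3b5, Mup14 and Slc22a28, at 0.27, 0.29 and 0.30. Hsd3b5, a male-specific steroid enzyme, was at 0.103, 119, 99.7 and 47.5 CPM in male LKO replicates 1 to 4 and at 2.92, 0.847, 9.72 and 2.20 CPM in the male controls. As for Slco1a1, male LKO replicate 1 was at the level of the females and male CRE- replicate 3 was the highest control.

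RefSeq promoters of 300 bases on GRCm38.p6 were found for 9 of the 10 transporters, 14 in all, and are shown for the transporters that fell in LKO livers. They were searched on both strands for the cAMP response element TGACGTCA, its short form TGACG, which lies within it, the antioxidant response element core TGACNNNGC and the STAT5 element TTCNNNGAA. These were held by 1.79%, 20.8%, 12.4% and 8.3% of all 32851 promoters. Capitals mark the matches. The promoter of Slco2b1 at chr7:99711291-99711590 on the minus strand, 1 of 3, holds 1 short form, and the other two hold 1 STAT5 element each. The promoter of Slc46a3 at chr5:147894766-147895065 on the minus strand holds 1 STAT5 element and 2 antioxidant cores. A match of letters is a description and not a binding site.
Slco2b1: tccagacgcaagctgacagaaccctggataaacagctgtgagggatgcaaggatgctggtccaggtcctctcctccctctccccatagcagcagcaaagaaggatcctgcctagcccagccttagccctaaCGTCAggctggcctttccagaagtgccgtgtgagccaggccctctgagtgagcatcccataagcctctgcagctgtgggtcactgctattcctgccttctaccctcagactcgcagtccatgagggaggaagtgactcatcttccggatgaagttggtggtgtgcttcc
Slc46a3: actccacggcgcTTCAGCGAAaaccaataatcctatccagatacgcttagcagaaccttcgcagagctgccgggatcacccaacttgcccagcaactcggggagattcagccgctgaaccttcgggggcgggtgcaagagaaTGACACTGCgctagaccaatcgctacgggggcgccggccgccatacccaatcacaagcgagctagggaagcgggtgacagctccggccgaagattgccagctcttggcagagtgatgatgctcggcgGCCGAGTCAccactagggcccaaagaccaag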

How the data were processed

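Poly-A liver RNA of 16 mice was sequenced. Per the submitters' processing notes and the file header, the authors aligned reads to GRCm39 with STAR 2.7.1a and counted them per gene and strand with featureCounts of Subread 2.0.6. Reads with several alignments were not counted, so reads shared by near copies are missing. The deposited values are raw counts of reads, and no column of values was left unused.

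Groups came from the labels. Counts were filtered with filterByExpr (minimum count 10), which kept 16742 genes, and scaled by TMM. The quasi-likelihood test of edgeR 4.0.16 (R 4.3.3) was fitted over the 16 libraries with a mean per group, and p-values were adjusted by Benjamini-Hochberg over every gene tested, at a threshold of 0.05. Levels in CPM, and in log2 CPM with a prior count of 2, were derived from the deposited counts. Totals were 33268424 to 56488920 reads. Floors and intervals on counts cover counting error only and take each read as independent. No pair of libraries in a group agreed within sampling noise. The steps were tested on simulated data.

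The members and lists were chosen with earlier results of these data known. Genes named are the 10 transporters, Gcgr, list members past the threshold in a LKO comparison, the most abundant gene of each list, and the 3 nearest genes to Slco1a1 and to each transporter that passed. Xist and Ddx3y were added after the values were seen. A few genes that this rule names are not reported here. The alternatives were DESeq2 1.42.0, limma-voom 3.58.1 with sample quality weights, RLE scaling, no filter, each sex alone, a replicate block, leaving out each library, and a prior count of 0.5.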

Additional observations from a re-analysis of the deposited data

Results flagged for a closer look

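In each group of 4 livers the gap between the most extreme value and the next, divided by the range of the group, was set against Dixon's 95% critical value for 4 samples. This was done for CPM of the 10 transporters and Gcgr in all 4 groups and of the other genes that passed in LKO livers in the female groups. Of 74 groups of values 10 held such a liver, where chance gives about 1 in 20. No explanation was tested.

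Male LKO replicate 1 was the extreme liver in 3 of the 10, each time as the highest, with ratios of 0.971 for Slco1a4 (167 CPM), 0.966 for Abcc4 (124 CPM) and 0.878 for Abcb1a (28.5 CPM). Male CRE- replicate 3 was the highest control for Slco1a1 (247 CPM, ratio 0.95) and the lowest for Gcgr (127 CPM, ratio 0.955). Male CRE- replicate 2 was the highest control for Abcc4 (18.1 CPM, ratio 0.832). Female LKO replicate 2 was the highest of its group for Abcc2 (288 CPM, ratio 0.882), Slc22a30 (85.3 CPM, ratio 0.84) and Cyp2f2 (223 CPM, ratio 0.865). Female LKO replicate 3 was the lowest for Slc46a3 (20 CPM, ratio 0.862).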

How the results depend on the processing

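The log2 fold changes of Slco2b1 and Slc46a3 in both sexes were below 0 in all alternatives run. Of 1274 fold changes of single genes under an alternative, 1085 kept their direction and side of the threshold, 145 kept their direction and lost the call, 5 kept it and gained the call, and 39 changed sign. Of these 39, 1 also gained the call, Slco1a4 in males without male LKO replicate 1. Except where given, the cause was not tested.

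By DESeq2, 339 genes passed in males, 1816 in females, 371 in the sex difference and 509 between the control groups, with 2 transporters in males (Slco2b1 and Slc46a3) and 2 between the controls. By limma-voom with quality weights the counts were 148, 1976, 29 and 329, with 2 transporters in males and 0 between the controls. There Slco1a4 in males was at -1.36, Abcb1a at -0.21 in males and -0.12 in females, Abcc3 at -0.14 in females, the sex difference of Slco1a4 at 0.78, and Abcc3 between the controls at 0.08. With no filter 12 genes passed the sex difference. With each sex alone, and so fewer samples, 107 genes and 1 transporter, Slc46a3, passed in males and 119 genes and 0 transporters in females, where Slco2b1 was at -0.84 (edgeR quasi-likelihood, Benjamini-Hochberg adjusted p = 0.075).

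With 1 library left out, 26 to 111 genes and 0 to 2 transporters passed in males, 87 to 1310 and 0 to 1 in females, 0 to 14 genes and 0 transporters in the sex difference, and 68 to 213 and 0 to 2 between the controls. The fits differ in samples and in the shared spread. The male log2 fold change was between -1.79 and 0.92 for Slco1a4, -0.65 and 0.40 for Abcb1a, and -0.11 and 2.40 for Abcc4. In females it was between -0.08 and 0.37 for Abcb1a, -0.24 and 0.10 for Abcg2, and -0.17 and 0.38 for Abcc3. The sex difference was between -1.27 and 1.44 for Slco1a4, -0.23 and 0.02 for Slco2b1, -0.26 and 0.80 for Abcb1a, -0.37 and 0.19 for Abcc3, and -2.04 and 0.48 for Abcc4. Between the controls it was between -0.02 and 0.29 for Slco1b2, -0.16 and 0.01 for Slco2b1, -0.08 and 0.42 for Abcb1a, -0.24 and 0.01 for Abcc3, and -0.04 and 0.17 for Gcgr.

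Groups share replicate numbers, but livers of the same number deviated together only weakly, with r over genes from -0.013 to 0.17 in males and 0.028 to 0.17 in females, and 2 of 4 controls in each sex were closest to the LKO liver of their number. They were not treated as pairs. With the number as a replicate block 63 genes passed in males, 1244 in females, 0 in the sex difference and 161 between the controls, and Slco1a4 in males was at -0.21.

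A prior count of 0.5 moved log2 CPM by at most 0.01, except for Slco1a1, by up to 2 where reads were near 0. Depth limits Slco1a1 in females.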
